A study of Danio rerio with 9 samples.

Results

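The genes described here code for the parts of oxidative phosphorylation that are encoded in the nucleus. They were chosen by name alone, as every row of the count tables whose symbol began with nduf, uqcr, cox4 to cox8, atp5 or sdha to sdhd. This gave 98 of 30649 rows, of which 46 belong to complex I, 9 to complex II, 8 to complex III, 18 to complex IV and 17 to complex V. Enough reads for the comparison of the groups were found for 94 of them. The tissue was 9 zebrafish melanomas. All came from fish of the genotype p53-/-, mitfa:BRAFV600E and Na-/-, in which the promoter of the pigment cell gene mitfa drives the BRAF V600E oncogene. At the 1-cell stage every embryo had received a MiniCoopR vector, a transposon that brings mitfa back together with a gene of interest. In 5 tumours (R157 to R161) that gene was CDK13 R860Q, a mutant of a kinase of RNA polymerase II, while in 4 control tumours (R162 to R165) it was EGFP. The sources used here give no fish age, and there was no group with added wild-type CDK13. Nothing in the labels ties the tumours to separate fish, and p-values then describe only how these 9 samples vary.

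Mitochondria make most of a cell's ATP by passing electrons along a chain of protein complexes in their inner membrane. Complex I takes electrons from NADH and complex II takes them from succinate. Complex III passes them on to cytochrome c and complex IV hands them to oxygen. The proton gradient built on the way drives complex V, the ATP synthase. Complexes I, III, IV and V are built from nuclear and mitochondrial gene products together, while complex II is wholly nuclear. Melanomas are known to differ in how far they rely on this pathway or on glycolysis.

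Depth was 5518472 to 15120176 counts a tumour. The vector's human CDK13 had 114 to 7239 reads in the R860Q tumours and 0 to 5 in the EGFP tumours. Pigment cell markers were present throughout: 12 of 13 listed markers had a row, none of these was at 0 in every tumour, and their summed level ran from 2829 to 15372 CPM in R860Q and from 6151 to 12924 CPM in EGFP tumours. CPM here are counts per 1000000 after TMM scaling, which sets the libraries to a common level by their typical genes. EGFP R162 stood apart, with a TMM factor of 0.65 against 0.87 to 1.25 in the others. Some of the results that rest on it are also given without it. All 13 rows of mitochondrially encoded subunits were listed at 0 in all 9 tumours, so the mitochondrial side of these complexes was not measured here. In these whole tumours, fewer cells of a type and less RNA per cell cannot be told apart.

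The 5 complexes went largely up and down together from tumour to tumour, though they parted in some. To score a complex, log2 CPM of each tested gene was centred on that gene's mean over the 9 tumours and averaged over the complex. EGFP R162 had the highest score in every complex, at 0.68 for complex I, 0.71 for II, 0.92 for III, 0.97 for IV and 0.62 for V. The scores of complexes I and II include assembly factors, which are 4 of the 8 genes scored for complex II. In R162 the 4 complex II subunits were at 0.33 and its 4 assembly factors at 1.09. In EGFP R163 to R165 the subunits were at 0.21, -0.25 and 0.16, and the assembly factors at -0.69, 0.05 and -0.50. R860Q R158 was lowest for complexes II and III (-0.45 and -0.56), and EGFP R165 for complexes I, IV and V (-0.34, -0.63 and -0.43). After R162 the order differed between complexes. R860Q R161 came next in complexes II, III and V (0.16, 0.25 and 0.42) and R860Q R160 in complex IV (0.47). In complex I R161 and R160 were level at 0.20, and in complex III R860Q R157 (0.23) was close to R161. In EGFP R163 complex V was at 0.04 and complex IV at -0.41. The complex V score includes atp5e, which was far out in R161 and R163 and is described below. Between these ends the groups overlapped in every complex. Summed over all 98 genes, oxidative phosphorylation transcripts were at 5928, 4706, 5121, 6534 and 7728 CPM in R860Q R157 to R161. In EGFP R162 to R165 the sums were 9894, 5564, 5806 and 4782 CPM. The group means were 6003 ± 1196 CPM (SD, n = 5) and 6512 ± 2297 CPM (SD, n = 4), so that the difference was smaller than the spread within either group. The EGFP mean includes R162, and the sums of EGFP R163 to R165 were each below the R860Q mean.

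**Figure D1:**
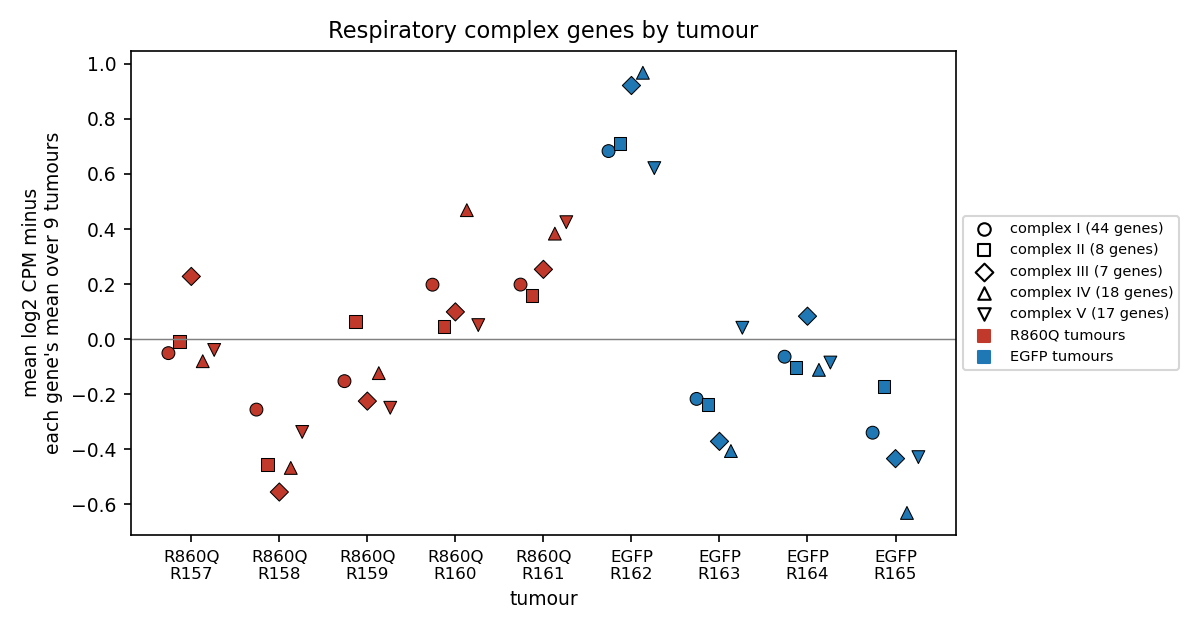
Mean score of each respiratory complex (y axis, log2 CPM centred on each gene's mean over 9 tumours) in each tumour (x axis), with 1 symbol per complex and colour for the group. EGFP R162 is highest in all 5 complexes (0.62 to 0.97). Within a tumour the complexes can lie apart, as in EGFP R163 (-0.41 for complex IV and 0.04 for complex V).

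Tumour EGFP R162 set most of the maxima. Of the 94 tested genes, 57 (60.6%) were highest there, against 17.9% of all 15169 genes tested. In 10 genes R162 was more than 2 times the next tumour (10.6%, against 2.29% of all genes), and 5 of these belong to complex IV. The position of R162 depends on whether the scaling goes beyond library size. With DESeq2 size factors 57 of the 94 (60.6%) were highest there, against 18.6% of all genes. With upper-quartile factors 59 (62.8%) were, against 19.9% of all genes. With library size as the only scaling, 23 of the 94 were highest in R162 (24.5%, against 4.48% of all genes), and EGFP R164 had the highest mean score. With that scaling the median of all genes in R162 was at -0.61 on the log2 scale and the mean score of the 94 genes at 0.13. Under TMM the median of all genes in R162 was at -0.01 and the mean score at 0.75, so both moved by a similar amount.

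Within R162 the level varied between roles and also within them. The median difference between R162 and the median of the other 8 tumours was 1.44 on the log2 scale for the supernumerary subunits of complex III, 1.27 for the small membrane subunits of complex V, 1.21 for complex IV subunits, 1.09 for the peripheral stalk and 0.98 for the c-ring of complex V. For the core subunits of complex I it was 0.12, and for the F1 head of complex V -0.25. Assembly factors were at 0.97 for complex I and 1.14 for complex II, and complex I accessory subunits at 0.55. Core subunits of complex III were at 0.64 and the subunits of complex II at 0.55. Within complexes I and III the core median was below that of the accessory or supernumerary subunits. Across complexes this order did not hold, as the complex III core was above the complex I accessory subunits. The 11 genes below the middle in R162 were atp5a1, atp5b, atp5d, atp5s, cox4i2, ndufa12, ndufs1, ndufv1, ndufv3, sdha and uqcrc1, a mix of large catalytic or core subunits and smaller parts. Over all genes tested, 51.1% were below the middle in R162, against 11.7% of these 94. The roles were assigned from textbook knowledge with these values known, and the differences between them were not tested.

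**Figure D2:**
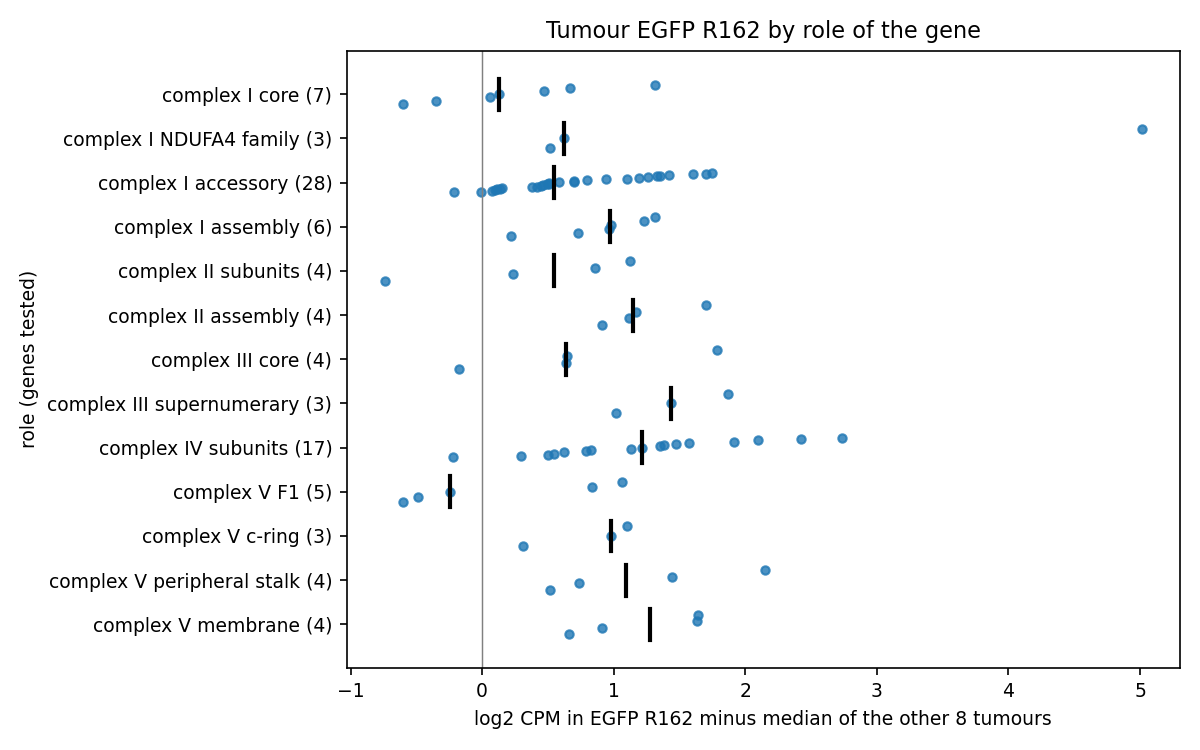
Log2 CPM in EGFP R162 minus the median of the other 8 tumours (x axis) for each tested gene, by role (y axis, roles with at least 3 tested genes). Points are genes and black bars are medians, which run from -0.25 for the F1 head to 1.44 for complex III supernumerary subunits.

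Other gene groups moved with R162 as well. The proteins of the cytosolic ribosome, listed after the data were seen, took 206674 summed CPM in R162 and 33682 to 92818 CPM in the other tumours, and 65 of 74 tested (87.8%) were highest there. Of 73 mitochondrial ribosome genes, 48 (65.8%) were highest in R162, with a mean score of 0.74 there. Of 30 tested assembly factors outside the chosen names, such as surf1 and bcs1l, 16 (53.3%) were highest there. Enzymes of the citrate cycle feed the chain with NADH and succinate. Their list, which here also names genes of pyruvate dehydrogenase and pyruvate carboxylase, did not share this. Of its 19 tested genes 3 (15.8%) were highest in R162. The summed level of the list was lowest there, at 1151 CPM against 1382 to 1489 CPM elsewhere. Regulators of mitochondrial biogenesis, a list with nrf1, gabpa, tfam and ppargc1a, had a mean score of 0.02 in R162. Of the 13 tested, 3 (23.1%) were highest there. Markers of some other tissues were also high in R162, while those of others were not. Mean scores there were -1.10 for keratinocyte, -0.33 for fibroblast and -0.04 for macrophage markers, and -1.93 for the 1 cardiac muscle marker tested. In each of these lists 0% of the tested genes were highest in R162. Skeletal muscle markers summed to 1304 CPM there and to 13.4 to 28.5 CPM in the other EGFP tumours, while R860Q R159 and R160 had 5396 and 3642 CPM. Erythrocyte markers, with 7 of 8 in the tables and none at 0 throughout, had their highest sum in R162, at 3315 CPM against 149 to 2673 CPM. Their mean score was higher in R860Q R157 (2.12) and R160 (1.18) than in R162 (0.72). Of the 6 tested, 2 were highest in R162. T and NK lymphocyte markers, 11 of 12 in the tables and none at 0 throughout, were at 404 CPM in R162, 303 and 416 CPM in EGFP R164 and R165, and 7.29 to 41.3 CPM in the other 6. The part of these tissues, ribosomal protein transcripts or depth in the R162 values was not tested.

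No oxidative phosphorylation gene passed the test of R860Q against EGFP tumours. The quasi-likelihood test of edgeR, adjusted by Benjamini-Hochberg over all 15169 genes, called 0 of the 94, where it called 0% of all genes. DESeq2 called 0 of 90 (0.454% of all genes) and limma voom 0 of 94 (0% of all genes). The smallest adjusted p by edgeR was 0.788. At an unadjusted p under 0.05 there was 1 gene by edgeR, on the lower side, against 6.14% of all genes (4.15% lower and 1.99% higher). DESeq2 and limma voom each had 2 at that level, against 7.55% and 6.06% of all genes. Of the 94 genes 60 were on the lower side and 34 on the higher, with a median log2 fold change of -0.10. Over all genes 52.8% were on the lower side and the median was -0.03. The groups did not separate in any of the 94 genes, while they did in 1.43% of all genes (0.626% with R860Q above and 0.804% below).

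**Figure D3:**
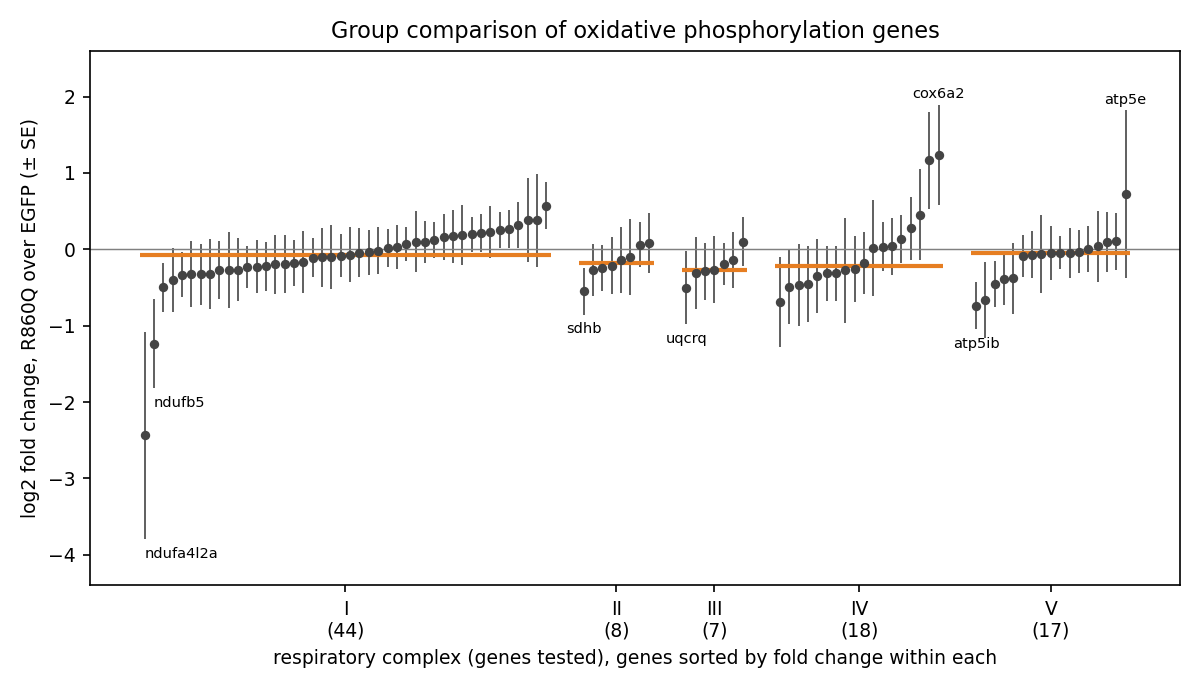
Log2 fold change of R860Q over EGFP tumours (y axis, with SE) for the 94 tested genes, sorted within each complex (x axis, with the number of genes). Orange bars are medians, between -0.27 in complex III and -0.05 in complex V, and no gene passed the test.

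The lower side rested mostly on R162, and in part on R860Q R158. Without R158, 49 of 93 tested members were lower and 44 higher, where 45.7% of all genes were higher. By limma voom with all tumours 46 members were lower and 48 higher, where 49.9% of all genes were higher. With all tumours in edgeR, the median log2 fold changes were -0.08 for complex I, -0.17 for II, -0.27 for III, -0.22 for IV and -0.05 for V. Without R162 they were 0.23, 0.21, 0.32, 0.38 and 0.09, and 74 of the 94 genes were on the higher side, against 49.7% of all genes. EdgeR then had 9 members at an unadjusted p under 0.05, of which 8 were on the higher side (3.85% of all genes were higher at that level and 4.63% lower), and called none after adjustment (0% of all genes). Most of the 94 genes were highest in R162, so leaving this control tumour out raises most of their fold changes by construction. The genes also moved largely together. The counts without R162 are therefore no evidence of a difference between the groups. The smallest edgeR adjusted p without R162 was that of atp5o, at 0.463. This subunit ties the F1 head to the stalk of the ATP synthase. It was at 176, 202, 139, 237 and 190.5 CPM in R860Q R157 to R161, and at 427, 108, 111 and 90.3 CPM in EGFP R162 to R165. Every R860Q tumour was above EGFP R163, R164 and R165 and below EGFP R162. The log2 fold change of atp5o was 0.04 ± 0.47 (SE) with all tumours and 0.87 ± 0.26 (SE) without R162. It was singled out after its values were seen.

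Complex I is the largest of the 5. Its nuclear core subunits carry the flavin and the iron-sulfur clusters that take electrons from NADH towards ubiquinone. Among the 7 tested, ndufv1, which binds NADH, was one of the steadiest of all 94 genes. It was at 109.8, 125, 136, 96.1 and 89.6 CPM in R860Q R157 to R161 and at 85.4, 98.8, 108 and 115 CPM in EGFP R162 to R165. Its SD over the 9 tumours was 0.22 on the log2 scale, where the median was 0.53 for the 94 genes and 0.57 for all genes tested. The largest iron-sulfur subunit, ndufs1, ranged from 49.9 CPM in R860Q R158 to 88.4 CPM in EGFP R163, with 51.4 CPM in R162. Near the quinone site, ndufs7 lay between 30.6 and 67.5 CPM. Log2 fold changes of these 3 were 0.13 ± 0.23 for ndufv1, -0.11 ± 0.25 for ndufs1 and -0.02 ± 0.30 (SE) for ndufs7.

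The 28 accessory subunits of complex I surround this core. They had a median log2 fold change of -0.08, with 17 on the lower side and 11 on the higher. The smallest p among all complex I genes was that of ndufb5, an accessory subunit of the membrane arm. It was at 35.1, 17.4, 30.5, 35.8 and 32.6 CPM in R860Q R157 to R161 and at 37.4, 192, 34.9 and 20.9 CPM in EGFP R162 to R165. A single tumour, EGFP R163, was 5.12 times the next highest, and the other 8 overlapped. The log2 fold change was -1.24 ± 0.59 (SE, edgeR adjusted p = 0.818). In the matrix arm, ndufa5 was at 24.9 ± 3.42 CPM in R860Q (SD, n = 5) and 16.8 ± 7.29 CPM in EGFP tumours (SD, n = 4). EGFP R162 and R163, at 24.2 and 21.4 CPM, lay among or just below the R860Q values (21.7 to 28.6 CPM), and EGFP R164 and R165 were at 13.0 and 8.53 CPM. Its log2 fold change was 0.57 ± 0.31 (SE, edgeR adjusted p = 0.891). The intermembrane space subunit ndufs5 was at 297 CPM in R162 and at 69.9 to 164.6 CPM elsewhere. Expression of ndufa2 was highest in the 3 tumours with the highest mean score over all 94 genes. It was at 43.0, 43.6 and 31.3 CPM in R860Q R160, R860Q R161 and EGFP R162. The other 6 lay between 6.43 and 18.6 CPM. The groups overlapped in part for the acyl carrier proteins ndufab1a and ndufab1b, at 18.8 to 79.5 CPM and 12.3 to 49.6 CPM. The 6 assembly factors named ndufaf, which help to build the complex and are not part of it, had a median log2 fold change of -0.18, and 5 of them were highest in R162.

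Among the 94 genes the widest spread belonged to ndufa4l2a. NDUFA4 was first counted with complex I and later assigned to complex IV, and its relative NDUFA4L2 is known in human cells as a target of the hypoxia factor HIF1 that lowers respiration. Read counts of ndufa4l2a were 19, 61, 7, 8 and 0 in R860Q R157 to R161 and 171, 11, 14 and 9 in EGFP R162 to R165. This is 1.42, 6.32, 1.02, 1.16 and 0 CPM against 41.8, 0.907, 2.04 and 0.492 CPM, and the 0 in R860Q R161 sets a floor of 0.426 CPM (3 counts, which covers counting error alone). R162 was 6.61 times the next tumour, R860Q R158. The SD over tumours was 2.14 on the log2 scale. The log2 fold change was -2.44 ± 1.36 (SE, edgeR adjusted p = 0.895), and 0.86 without R162. By contrast ndufa4l lay between 69.3 and 138 CPM, and ndufa4 between 11.9 and 41.0 CPM. The row ndufa4l2b was at 0 in all 9 tumours.

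Complex II is at the same time the succinate dehydrogenase of the citrate cycle. Its flavoprotein sdha was at 79.4, 79.2, 97.5, 59.9 and 54.6 CPM in R860Q R157 to R161 and at 50.1, 93.1, 88.6 and 119 CPM in EGFP R162 to R165. It was lowest in R162 and in R860Q R161 and R160, the 3 tumours with the highest mean score over all 94 genes. The iron-sulfur subunit sdhb was at 28.8 ± 8.90 CPM in R860Q (SD, n = 5) and 42.1 ± 14.3 CPM in EGFP tumours (SD, n = 4). EGFP R163 was highest at 63.0 CPM and R860Q R158 lowest at 17.9 CPM, and the groups overlapped. Log2 fold changes were -0.25 ± 0.30 for sdha (SE, edgeR adjusted p = 0.957), -0.55 ± 0.31 for sdhb (0.893) and -0.27 ± 0.34 (0.962) for the membrane anchor sdhdb. The other anchor, sdhc, lay between 25.5 and 59.2 CPM. Reads of sdhdb's copy sdhda numbered 0 to 22 a tumour. All 4 assembly factors named sdhaf were highest in R162, between 13.9 and 36.4 CPM.

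Complex III passes electrons from ubiquinol to cytochrome c through the Rieske protein uqcrfs1 and 2 cytochromes. The level of uqcrfs1 was 249, 161.6, 166, 183 and 271 CPM in R860Q R157 to R161 and 270.5, 143, 369.5 and 125 CPM in EGFP R162 to R165. Here EGFP R164, not R162, was highest. The core protein uqcrc1 lay between 45.3 CPM in R860Q R158 and 102 CPM in R860Q R157, with 75.1 CPM in R162 (log2 fold change -0.19 ± 0.27 SE, edgeR adjusted p = 0.968). The other core protein has 2 rows: uqcrc2b lay between 28.7 and 67.0 CPM, and uqcrc2a was at 63.1 CPM in R162 and 12.1 to 25.2 CPM elsewhere. The small subunit uqcrq was at 64.4, 30.9, 58.4, 73.0 and 72.9 CPM in R860Q R157 to R161 and at 197, 46.2, 48.2 and 49.3 CPM in EGFP R162 to R165. R162 was over 2 times any other tumour, while EGFP R163 to R165 lay within the R860Q range. Log2 fold changes were -0.50 ± 0.48 (SE, edgeR adjusted p = 0.941) for uqcrq and -0.29 ± 0.37 (0.962) for uqcr10, and 0.32 and 0.04 without R162. The row uqcrb, which names another small subunit of the complex, held 0 to 8 reads a tumour.

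Complex IV had the largest spread, with a median SD of 0.78 on the log2 scale against 0.48 to 0.58 in the other complexes. This spread includes R162, where the complex IV genes had a median of 1.17 above the other tumours on the log2 scale. The spread was not computed without R162. The nuclear subunits of complex IV surround the catalytic core made in mitochondria, and many exist as isoforms. The subunit cox4i1 was at 154, 149.9, 265, 231 and 212.5 CPM in R860Q R157 to R161 and at 285, 143, 141 and 169 CPM in EGFP R162 to R165. Levels of cox5aa were 60.4, 35.6, 44.9, 78.8 and 97.4 CPM against 154, 48.4, 54.9 and 46.9 CPM in the same order. In both genes R162 was highest and the other EGFP tumours lay within or just below the R860Q range. In cox7a2a the gap was wider, with 230.1 CPM in R162 and 25.7 to 72.4 CPM elsewhere, 3.18 times the next tumour. In cox8b R162 was at 129 CPM and the others at 15.97 to 59.6 CPM, so that R162 was 2.17 times the next. For cox7a2a the log2 fold change was -0.69 ± 0.59 (SE, edgeR adjusted p = 0.940), and 0.53 without R162. The gene listed as cox7a3, which RefSeq names cox7a2l, codes for a factor that in mammals joins complexes III and IV into supercomplexes. It lay between 17.1 and 43.5 CPM, with group means of 30.3 ± 10.1 CPM (SD, n = 5) in R860Q and 29.7 ± 9.75 CPM (SD, n = 4) in EGFP tumours.

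Isoforms of complex IV that mammals use in heart and skeletal muscle were set against their general counterparts. Differences between isoforms are in log2 CPM of reads, not per length, so they serve to compare tumours and not the isoforms. The muscle isoform cox6a2 was low, at 1.27, 0.933, 3.93, 4.80 and 2.13 CPM in R860Q R157 to R161 and 2.20, 0.495, 1.46 and 0.547 CPM in EGFP R162 to R165. It was highest in R860Q R159 and R160, its log2 fold change was 1.24 ± 0.66 (SE, edgeR adjusted p = 0.886), and the groups overlapped. The difference of cox6a2 from cox6a1 was -3.33 and -2.66 in R159 and R160 and -6.16 to -4.75 in the other 7 tumours. Skeletal muscle markers were highest in the same 2 tumours, but elsewhere their order differed from that of cox6a2. All 29 listed markers had a row and 22 were tested. Their summed level was 28.6 to 5396 CPM in R860Q and 13.4 to 1304 CPM in EGFP tumours, and tnnt3a was at 0 in all 9. R860Q R158 had 617 CPM of muscle markers and 0.933 CPM of cox6a2, while R860Q R161 had 28.6 CPM and 2.13 CPM, and EGFP R162 1304 CPM and 2.20 CPM. The complex IV subunit cox5b2, at 8.60 and 7.27 CPM in R159 and R160 and 0.984 to 2.93 CPM elsewhere, had its maxima in the same tumours (log2 fold change 1.17 ± 0.64 SE, edgeR adjusted p = 0.890). The other isoforms did not share these maxima. Levels of cox7a1 ran from 0.582 CPM (4 reads) in EGFP R164 to 7.50 CPM in EGFP R163, and cox8b was highest in R162. With the muscle score as a covariate in edgeR the log2 fold change was 0.71 for cox6a2 and 0.40 for cox5b2, and none of the 94 genes was called.

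Use of cox4i2, the isoform that low oxygen induces in mammals, varied on its own. It was at 42.5, 82.2, 50.7, 83.5 and 37.8 CPM in R860Q R157 to R161 and at 40.8, 102, 42.9 and 44.9 CPM in EGFP R162 to R165. EGFP R163, R860Q R160 and R860Q R158 were high and the other 6 tumours lay between 37.8 and 50.7 CPM. R162, which had the most ndufa4l2a, was among the low ones. In log2 CPM, cox4i2 minus cox4i1 was -0.49 in EGFP R163, -0.87 in R860Q R158 and -2.80 in EGFP R162. None of the 6 isoform pairs passed an exact two-sided permutation test over all 126 arrangements of 5 and 4 tumours, in which the smallest possible p was 0.00794. The lowest p was 0.190 for cox6a2 over cox6a1, with a group difference of 1.13, and all 6 adjusted p-values were between 0.714 and 0.881. For cox6b2 over cox6b1 the means were 2.43 ± 0.575 (SD, n = 5) in R860Q and 2.71 ± 0.49 (SD, n = 4) in EGFP tumours, and for cox8b over cox8a -1.91 ± 0.55 and -2.33 ± 0.91.

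**Figure D4:**
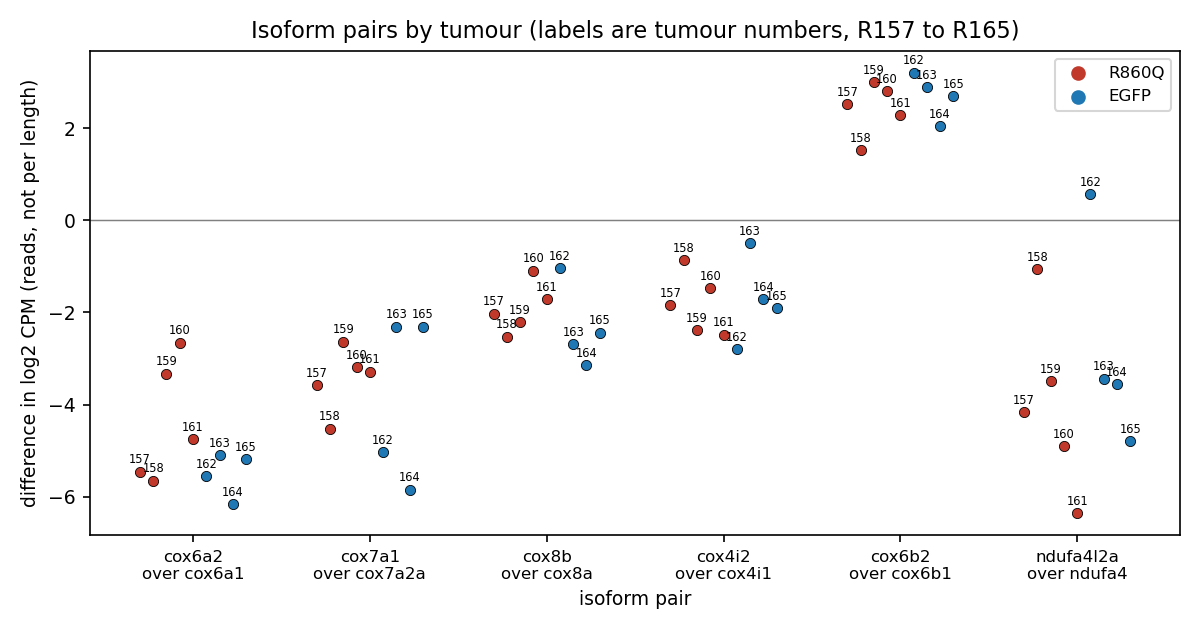
Difference in log2 CPM between the isoforms of 6 pairs (y axis, reads and not per length) in each tumour, coloured by group and labelled with the tumour number. R860Q R159 and R160 are highest for cox6a2 over cox6a1 (-3.33 and -2.66), EGFP R162 is highest for ndufa4l2a over ndufa4 (0.57), and the groups overlap in every pair.

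The catalytic head of complex V, F1, makes the ATP. Its alpha subunit atp5a1 was at 450.3, 269.9, 288, 388 and 405 CPM in R860Q R157 to R161 and at 283, 412, 419 and 359.5 CPM in EGFP R162 to R165. The catalytic beta subunit atp5b was at 460.02, 329, 406, 456 and 507 CPM against 301, 511, 377 and 625 CPM in the same order. Log2 fold changes were -0.03 ± 0.28 and -0.07 ± 0.31 (SE). Of the 3 genes for the c-ring, the rotor that protons turn, atp5g3a had the smallest spread of all 94 genes. It lay between 81.6 and 116 CPM, an SD of 0.16 on the log2 scale, while atp5g1 ran from 27.8 to 81.7 CPM and atp5g3b from 147 to 504 CPM. These rows have closely similar coding sequences, and the split of reads between them is uncertain. In the stalk, atp5h was at 299.6 CPM in R162, 122 CPM in R860Q R161 and 62.2 to 70.9 CPM in the other 7 tumours (log2 fold change -0.67 ± 0.50 SE, edgeR adjusted p = 0.938, and 0.25 without R162). Also in the stalk, atp5j was at 64.8 ± 20.9 CPM in R860Q (SD, n = 5) and 88.9 ± 23.8 CPM in EGFP tumours (SD, n = 4), a log2 fold change of -0.46 ± 0.30 (SE, edgeR adjusted p = 0.926).

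The lowest p of all 94 genes was that of atp5ib, a small membrane subunit at the dimer interface of the synthase. It was at 29.4, 17.3, 14.3, 24.3 and 28.9 CPM in R860Q R157 to R161 and at 42.1, 33.8, 52.5 and 24.4 CPM in EGFP R162 to R165. EGFP R162, R163 and R164 were above every R860Q tumour, and EGFP R165 was inside the R860Q range. Its log2 fold change was -0.74 ± 0.31 (SE), with an unadjusted p of 0.0348 and an adjusted p of 0.788 by edgeR. Its copy atp5ia, at 4.48 to 34.2 CPM, had a log2 fold change of -0.06 ± 0.51 (SE).

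The epsilon subunit atp5e, a small part of the rotor stalk in the F1 head, was far out in 2 tumours. It was at 46.2, 28.4, 56.8, 55.4 and 791 CPM in R860Q R157 to R161 and at 90.2, 311, 39.4 and 32.1 CPM in EGFP R162 to R165. R860Q R161 was 2.54 times EGFP R163, and both were above the other 7 tumours, which lay between 28.4 and 90.2 CPM. The delta subunit atp5d of the same stalk was at 59.8 and 66.4 CPM in these 2 tumours and at 30.2 to 59.9 CPM elsewhere. The log2 fold change of atp5e was 0.72 ± 1.0958 (SE), -1.34 without R860Q R161 and 1.87 without EGFP R163.

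Tested genes that lie around atp5e in the genome were high in the same 2 tumours. Gene order was taken from the RefSeq table of GRCz12tu, a later build than that of the counts, for names and neighbours only. In it 13011 tested genes could be placed. The adjoining tubb1 was not among them. It was at 27.8 CPM in R163 but at 1.28 CPM in R161, within the 0.146 to 2.20 CPM of the other 7 tumours. Nearby asip1, also not among them, stayed between 0 and 0.569 CPM. Counting outwards from atp5e in R860Q R161, 14 consecutive tested genes on one side and 16 on the other were each more than 1 log2 unit above the median of the other 8 tumours. In EGFP R163 the runs were 14 and 10. In R161 6.82% of all placed genes were that high, and in R163 6.57%. The median of the 10 nearest genes was 3.14 in R161 and 1.98 in R163, on the log2 scale, and in the other 7 tumours it was between -0.83 and 0.19. Of the 40 tested genes around atp5e, 31 were that high in R161 and 29 in R163. The 29 include a second stretch in R163, from st7l to ppm1j, which 1 gene separates from the run and which was not high in R161.

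The neighbours include a further gene of the respiratory chain. Cytochrome c1, cyc1, is the electron-carrying subunit of complex III whose name falls outside the rule, and it is the fourth tested gene from atp5e. It was at 111, 56.1, 120.1, 92.8 and 842 CPM in R860Q R157 to R161 and at 67.5, 620.5, 109.7 and 89.8 CPM in EGFP R162 to R165. R161 and R163 were both over 5 times any other tumour. Beside them lie ahcy, which breaks down S-adenosylhomocysteine, at 2516 CPM in R161, 857 CPM in R163 and 123 to 193 CPM elsewhere, and gnas, the stimulatory G protein, at 169, 70.5 and 7.58 to 17.0 CPM. A member of complex IV, cox6c, is the twentieth tested gene from atp5e and was at 86.0 CPM in R161 and 40.3 CPM in R163, within the range of the other tumours (24.7 to 119 CPM), though 1.005 above their median in R161 on the log2 scale.

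The maximum of ndufb5 in EGFP R163 also had neighbours that were high in that tumour. The adjoining mrpl47, a mitochondrial ribosome protein, was at 101 CPM in R163 and 6.32 to 16.1 CPM elsewhere. Next to it actl6a, a subunit of chromatin remodelling complexes, was at 207 CPM in R163 and 20.6 to 58.7 CPM elsewhere. Of the 10 nearest tested genes 7 were more than 1 log2 unit above the other tumours in R163, with a median of 1.74. The neighbour on the other side, usp13, was not among them, at 2.47 CPM in R163 and 53.9 CPM in R860Q R159. Around ndufa4l2a, where 9 tested neighbours on its chromosome could be placed within the same distance, 0 of 9 were that high in R162. In R860Q R158, its next highest tumour, 5 of 9 were, against 7.52% of all placed genes there. Among 92 members with enough placed neighbours, the median of the 10 nearest genes exceeded 1 log2 unit in 7 of 828 pairs of gene and tumour, against 0.495% of pairs over all placed genes. The 3 largest were atp5e in R161 and R163 and ndufb5 in R163, and these were the ones in which the member itself was above 2. These 3 members were picked for this comparison after their values were seen. DNA was not measured here.

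**Figure D5:**
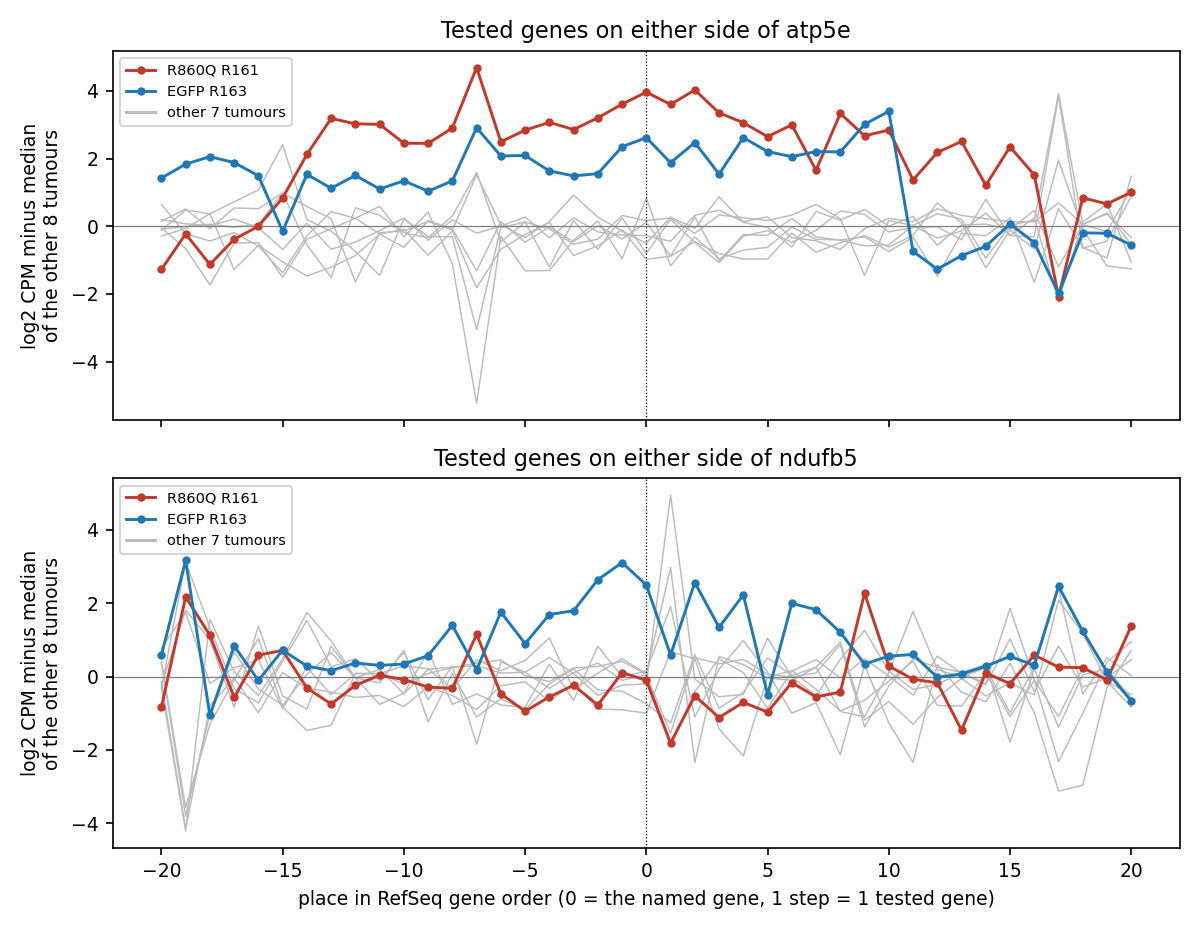
Log2 CPM in a tumour minus the median of the other 8 (y axis) for tested genes in RefSeq order around atp5e (upper) and ndufb5 (lower), where each step on the x axis is 1 tested gene. Around atp5e R860Q R161 and EGFP R163 stay above the other 7 tumours over consecutive genes, 14 and 16 on the 2 sides in R161, and around ndufb5 EGFP R163 does so for most of the nearest genes.

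Related lists gave no call between the groups either. EdgeR called 0 of 19 genes of the citrate cycle list (median log2 fold change 0.04, 10 higher and 9 lower). It called 0 of 73 mitochondrial ribosome genes (-0.09, 26 higher and 47 lower) and 0 of 30 assembly factors (-0.0031, 15 and 15). It also called 0 of 13 biogenesis regulators (0.04, 7 and 6) and 0 of 4 electron carriers outside the rule (0.0072, 2 and 2). None of these genes had an unadjusted p under 0.05. A further 5 rows of the same families are written in capitals in the files and were not counted as members: NDUFB4, NDUFC1, NDUFAF8, COX5B_(1_of_many) and COX7A2_(1_of_many). Their log2 fold changes were between -0.18 and 0.32, with edgeR adjusted p from 0.941 to 0.997. The 4 members not tested were ndufs8b and ndufa4l2b, at 0 in every tumour, and sdhda and uqcrb.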

How the data were processed

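RNA from whole zebrafish melanomas was depleted of ribosomal RNA, primed at random and sequenced as paired reads, per the labels' protocols. The authors deposited a table of whole-number read counts per gene for each tumour. Bowtie, HTSeq and the builds danRer10 and GRCz10 are named, without versions, per the submitters' processing notes, and the sources used here do not state whether counting used strand. The assignment of reads to genes that overlap or have close copies is uncertain.

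Counts were tested with edgeR 4.0.16 (quasi-likelihood, TMM factors, limma 3.58.1, R 4.3.3) after a filter on low counts (minimum count 10, minimum total count 15), with the group (R860Q or EGFP) as sole covariate and Benjamini-Hochberg adjusted p under 0.05 over all 15169 genes tested. Log2 CPM used a prior count of 2. The SE of an edgeR log2 fold change was derived from its test, as its absolute value divided by the square root of the quasi-likelihood F statistic. Only the edgeR fit was tested on simulated counts, with known fold changes. Alternatives were DESeq2 1.42.0, limma voom, other factors and filters, a muscle score as covariate and leaving out each tumour; factors other than TMM for scores, isoform ratios without each tumour and the rows in capitals were added after the data were seen. The members, roles and lists were chosen with earlier results of these data known. Genes were named by rule: the 3 smallest p in each complex, central subunits, isoform pairs, and the 2 largest and 2 smallest spreads. Any other gene was named after its values were seen. A gene that the rule names is not reported here. The rule's ranking by level per length was not applied, since no lengths were used, so levels are not compared between genes. RefSeq listed 97 of the 98 genes, 19 of them under another symbol. The floor for a count of 0 covers counting error only.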

Additional observations from a re-analysis of the deposited data

Results flagged for a closer look

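Of the groups of 4 or 5 tumours examined, some held 1 tumour far from its own group. In independent groups chance gives about 1 such flag in 20, and 13 were found among 86. These groups share the same 9 tumours, and some genes were named for a small p or a large spread. The count therefore cannot be compared with that rate. No explanation was tested. For the score of complex II, R860Q R158 was at -0.45 (other R860Q tumours -0.01 to 0.16) and EGFP R162 at 0.71 (other EGFP tumours -0.24 to -0.10). That score includes 4 assembly factors. For the 4 subunits alone EGFP R162 was at 0.33 and the other EGFP tumours at -0.25 to 0.21. In log2 CPM, R860Q R158 was at 4.14 for ndufb5 (others of its group 4.94 to 5.17) and at 4.96 for uqcrq (5.87 to 6.19). R860Q R161 was at 6.93 for atp5h (5.99 to 6.14), at 7.97 for cox6b2 (7.37 to 7.50) and at 9.63 for atp5e (4.84 to 5.83).

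EGFP R162 was at 7.62 for uqcrq (others of its group 5.54 to 5.63), at 8.23 for atp5h (5.96 to 6.15), at 7.27 for cox5aa (5.56 to 5.78) and at 7.02 for cox8b (4.11 to 4.27). EGFP R163 was at 6.67 for cox4i2 (5.36 to 5.5), and EGFP R164 was low for cox7a1, at -0.33 (2.39 to 2.95). The cox7a1 value in R164 rests on 4 reads, close to the floor of 3 counts.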

How the results depend on the processing

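No gene of oxidative phosphorylation was called under any alternative run, and over all genes edgeR called 0, DESeq2 68, and the fits without 1 tumour 0 to 1 (grn1, without EGFP R165). The median log2 fold change of the 94 genes was -0.23 to 0.26 with 1 tumour left out, above 0 only without EGFP R162, and 0.01 by limma voom. In the same fits it was -0.16 to 0.23 for complex I, -0.30 to 0.21 for II, -0.49 to 0.32 for III, -0.41 to 0.38 for IV and -0.17 to 0.09 for V. By gene the range was -2.85 to 0.86 for ndufa4l2a, -0.48 to 0.14 for sdhdb (0.0437 by limma voom), -0.70 to 0.32 for uqcrq, -0.49 to 0.0447 for uqcr10, -0.99 to 0.53 for cox7a2a and -0.89 to 0.25 for atp5h, each above 0 without R162. With the muscle score as a covariate cox6a2 was at 0.71 and cox5b2 at 0.40. The range without 1 tumour was -1.34 to 1.87 for atp5e, -0.38 to 0.44 for cox6b2 and -0.55 to 1.06 for cox8b. Group differences of the isoform pairs ran from -0.23 (without EGFP R164) to 0.95 for cox7a1 over cox7a2a and from -0.44 to 0.33 for cox4i2 over cox4i1, which was above 0 without R860Q R159 (0.06), R860Q R161 (0.09) or EGFP R163 (0.33). With library size only, 23 members were highest in R162, against 57 with TMM or DESeq2 size factors and 59 with upper-quartile factors. Apart from fits without these tumours the cause was not tested. No paired analysis was possible because the labels give nothing by which to pair tumours across the groups.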
